A study of Mus musculus with 4 samples.

Results

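Glucocorticoid receptor target genes were examined as a set of 9 genes, Fkbp5, Tsc22d3, Zbtb16, Per1, Sgk1, Klf9, Ddit4, Dusp1 and Cebpd, of the 32285 genes in the count matrices. The members were found by gene symbol, and all 9 were present in every library. The data comprised 4 single-cell RNA-Seq libraries from C57BL/6J male mice aged 20 weeks, all taken at week 2. Callus control and trabecular control came from placebo-treated mice with a fracture and without one, and callus GC and trabecular GC came from the matching mice given the glucocorticoid (GC) prednisolone at 6.25 mg/kg/d. By the labels, all mice carried slow-release pellets (placebo in controls), but by the methods of the study the mice with a fracture received GC as a daily injection. Marrow was flushed out and the bone pieces were crushed and digested with collagenase II, dispase II and DNase I before capture. The number of mice behind a library is not given in the sources used here.

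GCs enter the cell and bind the glucocorticoid receptor (Nr3c1), which waits in the cytoplasm in a complex with heat shock protein 90 and co-chaperones. The bound receptor moves to the nucleus, where it raises transcription at glucocorticoid response elements, inverted repeats of the hexamer AGAACA, and lowers transcription of many inflammatory genes. The 9 genes are widely used readouts of the receptor. Fkbp5 encodes a co-chaperone that lowers the affinity of the receptor for hormone, Tsc22d3 encodes the antiinflammatory leucine zipper protein GILZ, and Zbtb16 and Klf9 encode zinc finger transcription factors. Per1 is a core clock gene, Sgk1 a kinase that controls ion transport and survival, Ddit4 an inhibitor of mTORC1, Dusp1 a phosphatase that switches off MAP kinases, and Cebpd a transcription factor of the acute phase and of myeloid cells. Several have other inducers as well: hypoxia and stress for Ddit4, growth factors and tissue dissociation for Dusp1, and osmotic stress for Sgk1.

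With 1 library per condition there is no replicate error, so no difference between conditions was tested and no p-value is given. Levels are UMIs of the gene per 1000000 UMIs of the cells concerned (CPM), where each unique molecular identifier (UMI) marks 1 captured RNA molecule. All intervals are 95% intervals, exact for Poisson or binomial counts, and cover counting error only. A gene is called higher or lower in GC where the difference in log2(CPM + 5) reached 1.5-fold and the gene had at least 50 UMIs over both libraries. The share of all genes that passed the same rule is given beside each first count as the background.

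The libraries held 41239842 to 95852254 UMIs, and 6705 cells of callus control, 6890 of callus GC, 3803 of trabecular control and 4602 of trabecular GC remained after filtering, with medians of 3278.5 to 6301 UMIs per cell. Libraries shared 6 to 10 cell barcodes with each other. The callus GC matrix lists called cells only, so no empty droplets could be measured for it. Cell classes were rebuilt from marker genes, and every class name below stands for cells like that type. The cartilage collagen gene Col2a1 was at 43072 CPM in callus control and 27712 CPM in callus GC, against 0.0591 and 1.56 CPM in the trabecular libraries. The trabecular libraries were instead marrow cells: the neutrophil gene S100a8 stood at 89532 CPM in control and 74352 CPM in GC, the osteoblast gene Bglap at 8.93 and 0.456 CPM, and neutrophils and their progenitors made up 71.0% and 73.9% of the cells. No osteoblast or chondrocyte class was found there.

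Promoter windows of 300 bases, from 250 bases before to 50 after each annotated start, were held in the RefSeq table (GRCm38.p6) for 7 of the 9 genes, 15 windows in all. The 4 below are shown because they hold the response element of Sgk1, the only single hexamer of Tsc22d3, and the E-boxes (CACGTG, the site of clock and other basic helix-loop-helix factors) of Fkbp5 and Per1. Capitals mark AGAACA and its reverse complement TGTTCT, and also the palindrome CACGTG, all read on both strands, and the rest is in lower case.

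Sgk1, chr10:21993640-21993939, plus strand: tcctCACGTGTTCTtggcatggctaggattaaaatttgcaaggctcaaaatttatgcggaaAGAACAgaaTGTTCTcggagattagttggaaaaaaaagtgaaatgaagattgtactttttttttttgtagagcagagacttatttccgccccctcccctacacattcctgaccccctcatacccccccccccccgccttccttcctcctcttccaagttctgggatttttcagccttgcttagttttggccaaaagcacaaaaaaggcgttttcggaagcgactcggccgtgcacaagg

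Tsc22d3, chrX:140600473-140600772, minus strand: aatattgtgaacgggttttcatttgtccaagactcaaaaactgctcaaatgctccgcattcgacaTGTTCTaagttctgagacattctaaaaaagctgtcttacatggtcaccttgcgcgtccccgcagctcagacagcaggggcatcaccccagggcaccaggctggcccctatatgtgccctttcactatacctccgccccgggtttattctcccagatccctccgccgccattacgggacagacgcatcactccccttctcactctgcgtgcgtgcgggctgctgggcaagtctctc

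Fkbp5, chr17:28486100-28486399, minus strand: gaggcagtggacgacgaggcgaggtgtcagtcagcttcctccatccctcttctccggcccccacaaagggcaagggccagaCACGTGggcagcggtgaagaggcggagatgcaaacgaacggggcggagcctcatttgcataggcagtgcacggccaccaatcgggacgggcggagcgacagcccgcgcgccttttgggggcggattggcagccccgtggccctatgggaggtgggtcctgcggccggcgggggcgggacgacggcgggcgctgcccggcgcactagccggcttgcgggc

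Per1, chr11:69098699-69098998, plus strand: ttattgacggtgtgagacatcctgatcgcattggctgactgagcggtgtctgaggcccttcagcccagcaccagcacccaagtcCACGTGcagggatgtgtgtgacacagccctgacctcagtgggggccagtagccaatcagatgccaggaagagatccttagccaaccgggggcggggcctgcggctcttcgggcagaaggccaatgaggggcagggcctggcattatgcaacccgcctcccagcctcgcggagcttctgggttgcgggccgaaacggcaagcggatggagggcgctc

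The hexamer AGAACA or its reverse complement TGTTCT occurred in 4 of the 15 windows, against 6233 of 32851 RefSeq windows. Sgk1 has 6 annotated starts and held 3 of these 4 windows. The paired element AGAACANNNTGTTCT was present in 1 window, as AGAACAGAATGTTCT beginning 189 bases before the start of Sgk1 at chr10:21993640-21993939, and in only 3 of the 32851 windows (0.00913%). In the same window a further TGTTCT began 242 bases before the start and overlapped an E-box. The single hexamer of Tsc22d3 began 185 bases before the start. An E-box occurred in 4 of the 15 windows, against 7.15% of all windows, 1 each of Fkbp5, Per1, Sgk1 and Dusp1. No hexamer was found in the windows of Fkbp5, Per1, Klf9, Ddit4 or Dusp1, which covers these 300 bases only. Of the genes whose windows are shown, Fkbp5 lies at chr17:28399094-28517527, minus strand (GRCm38, GENCODE M21), Tsc22d3 at chrX:140539528-140600659, minus strand, Sgk1 at chr10:21882184-21999903, plus strand, and Per1 at chr11:69095217-69109960, plus strand.

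Over all cells of trabecular bone, 4 of the 9 genes were higher in GC, Fkbp5, Tsc22d3, Zbtb16 and Klf9, and none was lower, where 1.52% of all genes were higher and 1.83% were lower. Fkbp5 stood at 16.1 CPM in control (545 UMIs) and 60.1 CPM in GC (2240 UMIs), a ratio of 3.73 (95% interval 3.40 to 4.11). Tsc22d3 stood at 75.5 CPM in control (2553 UMIs) and 166 CPM in GC (6189 UMIs), a ratio of 2.20 (95% interval 2.10 to 2.31). Klf9 stood at 41.9 CPM in control (1416 UMIs) and 92.9 CPM in GC (3460 UMIs), a ratio of 2.22 (95% interval 2.08 to 2.36). Zbtb16, the lowest of the 9 in number of UMIs, went from 57 UMIs in control to 454 in GC, or 1.69 CPM in control and 12.2 CPM in GC, with an interval of the ratio of 5.48 to 9.70. The other 5 genes differed by less than 1.5-fold. Dusp1 was at 332 CPM in control and 384 CPM in GC, Cebpd at 129.6 CPM in control and 145 CPM in GC, and Per1 at 85.2 CPM in control and 95.9 CPM in GC. Sgk1 was at 57.2 CPM in control and 69.01 CPM in GC, and Ddit4 at 27.97 CPM in control and 29.98 CPM in GC.

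The makeup of the trabecular cells also differed between the libraries. The share of mature neutrophils was 40.9% in control and 55.9% in GC, that of immature neutrophils 24.8% and 12.2%, and that of B cells 8.39% and 0.348%. Levels over all cells therefore mix a difference in the cells with a difference within them, and the comparison was repeated within each class.

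Over all cells of callus, only Sgk1 of the 9 was higher in GC and only Ddit4 was lower, against a background of 1.69% and 1.54% of all genes. Sgk1 was at 536 CPM in control (42906 UMIs) and 992 CPM in GC (54720 UMIs), a ratio of 1.85 (95% interval 1.83 to 1.87). Ddit4 was at 48.3 CPM in control (3871 UMIs) and 24.7 CPM in GC (1362 UMIs), a ratio of 0.511 (95% interval 0.480 to 0.543), and lost the call with the mean over cells, at -0.37, and with cells thinned to 1000 UMIs, at -0.45. Fkbp5, at 19.6 CPM in control and 31.04 CPM in GC, had a ratio of 1.58 (95% interval 1.48 to 1.69), but its log2 difference of 0.55 on the CPM + 5 scale fell just short of 1.5-fold. Klf9, Dusp1, Tsc22d3 and Zbtb16 had log2 differences of 0.35, 0.38, 0.17 and 0.23. Per1 and Cebpd had log2 differences of -0.36 and -0.12. The sign of Dusp1 turned with the mean over cells, at -0.47, and with thinned cells, at -0.42, and that of Cebpd with thinned cells, at 0.03. The level of Sgk1 was far higher in callus than in trabecular bone, 536 against 57.2 CPM in the control libraries. Klf9 was also higher in callus control, 230 against 41.9 CPM. These tissue differences rest on 1 library each and on different cells. The makeup of the callus cells differed between its libraries as well. Chondrocytes made up 30.2% of cells in control and 25.8% in GC, and clusters left without a name 18.2% and 29.1%. Levels over all callus cells therefore also mix a difference in the cells with a difference within them.

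**Figure D1:**
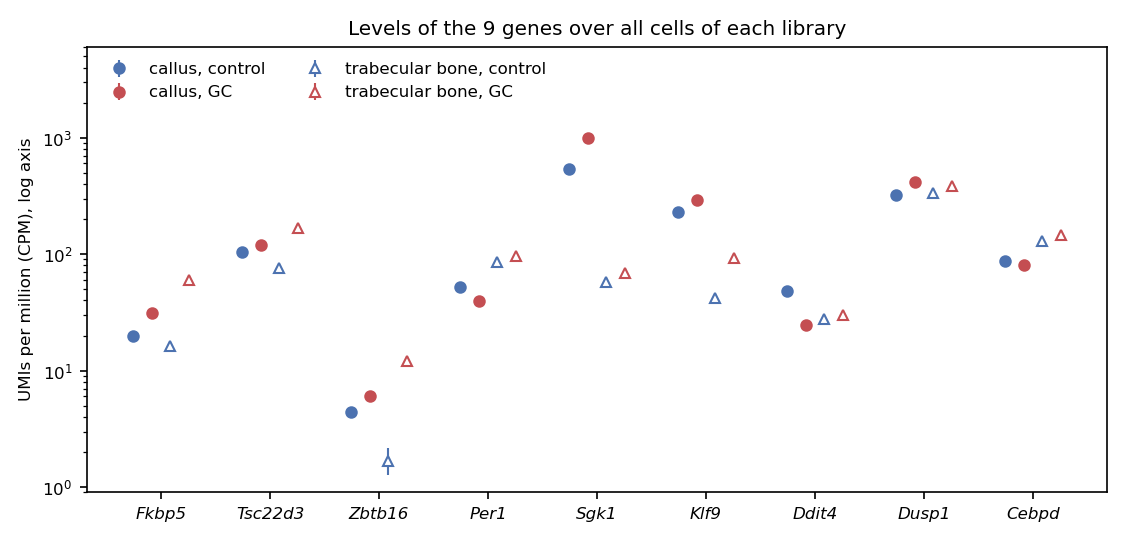
Level of each of the 9 genes in the 4 libraries, in CPM over all cells on a log axis, with 95% Poisson intervals (mostly smaller than the symbols). In trabecular bone (triangles) Fkbp5, Tsc22d3, Zbtb16 and Klf9 lay higher in GC (red) than in control (blue), whereas in callus (circles) the widest gaps were those of Sgk1 and Ddit4.

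Over the 7 trabecular classes with at least 30 cells in both libraries, 52 of 63 pairs of gene and class had enough UMIs. Of these, 15 were higher in GC (28.8%, against 4.30% of all pairs of gene and class) and 1 was lower (1.92%, against 10.1%). Of the 4671 lower pairs of all genes behind the 10.1%, erythroid cells alone gave 3222, so that this background mostly describes 1 class. The median log2 difference of the 52 pairs was 0.34. Over 13 callus classes, 79 of 117 pairs had enough UMIs, 12 were higher (15.2%, against 6.13%) and 10 were lower (12.7%, against 8.82%), with a median of 0.06. The callus classes leave out clusters without a name, which held 1223 of 6705 control cells (18.2%) and 2002 of 6890 GC cells (29.1%). The calls were unevenly spread over the genes. In trabecular bone, Fkbp5 was higher in 6 of 7 classes, Tsc22d3 in 5 of 7, Klf9 in 3 of 7 and Zbtb16 in the 1 class where it could be compared, while Per1, Sgk1, Ddit4 and Cebpd were called in none.

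**Figure D2:**
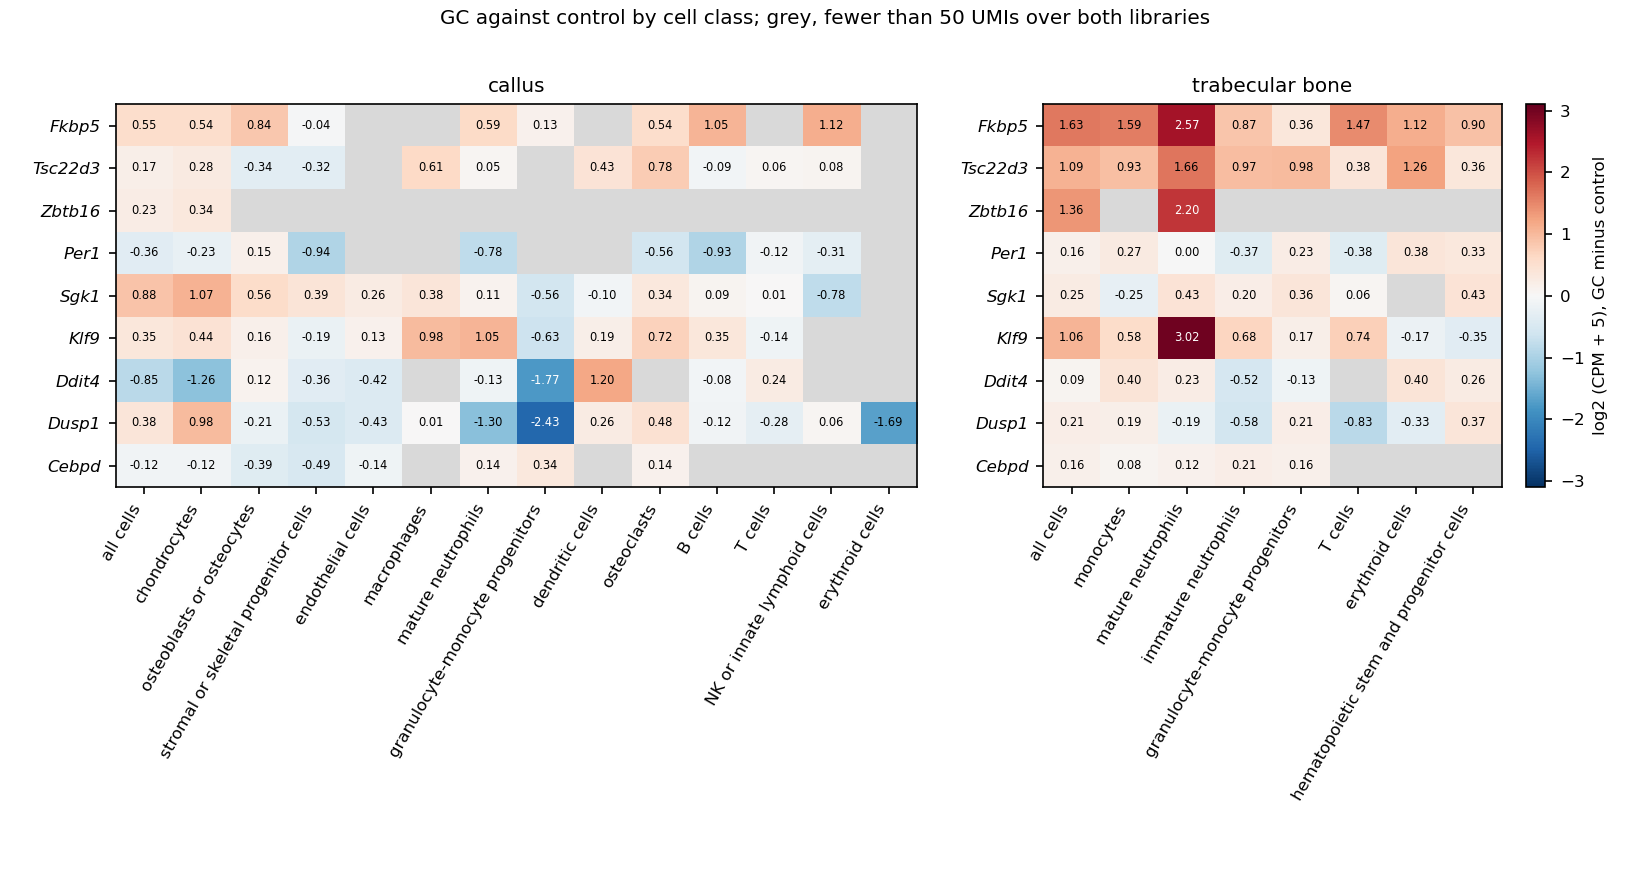
Difference in log2(CPM + 5), GC minus control, for each gene (rows) and class (columns) in callus and trabecular bone. Red marks higher and blue lower in GC, and grey marks pairs with fewer than 50 UMIs over both libraries. In trabecular bone the 15 called increases lay in the rows of Fkbp5, Tsc22d3, Zbtb16 and Klf9, whereas in callus red and blue cells were spread over most rows.

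The widest differences in trabecular bone were those of mature neutrophils, the most abundant class, with 1555 cells in control and 2574 in GC. Here all of Fkbp5, Tsc22d3, Zbtb16 and Klf9 were higher in GC, none of the 9 was lower, and 14.3% of all genes were higher and 3.66% lower. The median of all genes was itself shifted by 0.24 on the log2 scale. Klf9 was at 9.74 CPM in control (75 UMIs) and 114 CPM in GC (1377 UMIs), a ratio of 11.7 (95% interval 9.31 to 15.02). Fkbp5 was at 12.2 CPM in control (94 UMIs) and 97.1 CPM in GC (1169 UMIs), a ratio of 7.96 (95% interval 6.44 to 9.92). Tsc22d3 was at 73.6 CPM in control (567 UMIs) and 243 CPM in GC (2930 UMIs), a ratio of 3.31 (95% interval 3.02 to 3.62). Each of these intervals lies well above the general shift of the class.

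Zbtb16 was close to absent from control mature neutrophils, with 14 UMIs (1.82 CPM), and had 318 UMIs (26.4 CPM) in GC, a ratio of 14.5 (95% interval 8.53 to 26.9). The other 5 genes were within 1.5-fold over the class. Per1 was at 194 CPM in control and 193 CPM in GC, Dusp1 was at 1026 CPM in control and 896 CPM in GC, and Sgk1 was at 64.2 CPM in control and 88.3 CPM in GC. Ddit4 and Cebpd had log2 differences of 0.23 and 0.12. Over the alternative settings, the log2 difference of Fkbp5 ran from 1.86 to 3.07 and that of Klf9 from 2.18 to 3.47.

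The difference was also seen as a share of cells. After every cell had been thinned to 1000 UMIs, Fkbp5 was detected in 16 of 1531 mature neutrophils of control (1.05%) and in 296 of 2531 of GC (11.7%). Klf9 was detected in 0.849% and 12.7%, Tsc22d3 in 5.49% and 22.3%, and Zbtb16 in 0.327% and 3.83%. In erythroid cells Fkbp5 was detected in 0 of 313 thinned control cells and 0 of 532 thinned GC cells, which allows shares of up to 0.958% and 0.564% at 3 counts. These limits hold for cells with a UMI after thinning, not for cells that express the gene, and hemoglobin transcripts took much of the UMIs of erythroid cells. Without thinning, at medians of 6372 and 5828.5 UMIs per cell, the Fkbp5 shares of erythroid cells were 2.75% and 4.12%.

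Mature neutrophils of the 2 trabecular libraries fell largely into different clusters. Of the control cells, 1014 lay in cluster 0 and 528 in cluster 5, which held 51 and 62 GC cells. The GC cells lay mainly in clusters 1, 2, 4 and 6, with 649, 631, 611 and 546 cells. Fkbp5 was at 10.47 and 14.7 CPM in the control cells of clusters 0 and 5, and at 95.4, 143, 138 and 66.4 CPM in the GC cells of clusters 1, 2, 4 and 6. Klf9 was at 5.01 and 15.9 CPM in the former and at 122, 149.9, 153 and 88.6 CPM in the latter. All 4 GC clusters thus lay above both control clusters for these genes.

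Tsc22d3 followed the same order, with 64.4 and 85.7 CPM in control and 234 to 269 CPM over the 4 GC clusters. Zbtb16 was uneven among the GC cells, at 68.00 CPM in cluster 2 and 59.4 CPM in cluster 4, but at 12.9 CPM in cluster 1 and 4.002 CPM in cluster 6. Within a single cluster the comparison rests on few GC cells. In cluster 0 the log2 differences were 2.04 for Fkbp5 and 1.06 for Tsc22d3, and in cluster 5 they were 0.32 and 0.39. Klf9 in cluster 5 was at 15.9 CPM in control (52 UMIs) and 29.5 CPM in GC (15 UMIs), much closer than over the class. In cluster 0 it had too few UMIs to be compared (22 in control and 5 in GC). Zbtb16 also had too few, with 11 UMIs in control and 3 in GC in cluster 0, and 3 and 0 in cluster 5. The class ratios of these genes thus mostly compare cells of different clusters.

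Dusp1 behaved otherwise. Its level in GC cells ranged from 262 CPM in cluster 6 to 1904 CPM in cluster 4, on both sides of the control values of 1375 CPM (cluster 0) and 564 CPM (cluster 5). Within clusters 0 and 5 it was lower in GC, with log2 differences of -1.14 and -1.17, although the class as a whole differed by -0.19. Per1 had log2 differences of -1.27 in cluster 0, past 1.5-fold, and -0.33 in cluster 5, although its class values were close to each other. Sgk1 passed the limit in cluster 5 only, with 0.35 in cluster 0 and 0.73 in cluster 5, and Ddit4 in cluster 0 only, with -0.59 and 0.15. When mature and immature neutrophils were joined (2500 cells in control and 3135 in GC), Fkbp5, Tsc22d3, Zbtb16 and Klf9 were still higher, with ratios of 5.55, 3.03, 17.9 and 5.62, against 3.40% of all genes higher and 1.40% lower.

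In immature neutrophils (945 and 561 cells), the same genes except Zbtb16 were higher, where 1.69% of all genes were higher and 2.92% lower. Fkbp5 was at 13.7 CPM in control and 29.03 CPM in GC (95% interval 1.70 to 2.66 for the ratio), Tsc22d3 at 59.3 CPM in control and 121 CPM in GC (95% interval 1.83 to 2.27), and Klf9 at 19.3 CPM in control and 33.8 CPM in GC (95% interval 1.44 to 2.13). The ratios of 2.12, 2.04 and 1.752 were smaller than in mature neutrophils. In each library the values of all 3 genes were under those of its empty droplets. The droplets were at 15.05 CPM in control and 53.04 CPM in GC for Fkbp5, 64.5 and 151 CPM for Tsc22d3, and 23.6 and 72.7 CPM for Klf9. Those of control rest on 7, 30 and 11 UMIs, with intervals that include the control values of the class. The interval of Tsc22d3 in GC droplets, 119 to 189 CPM, also includes the class value. The part of free RNA in the values of the class was not tested directly. Each of the 3 calls was lost under an alternative. Fkbp5 and Klf9 had log2 differences of 0.54 and 0.45 with a pseudocount of 20 CPM, and Tsc22d3 0.51 with thinned cells. Klf9 had 0.56 with 10% of UMIs taken off in the proportions of all cells of the library. Dusp1, Ddit4 and Per1 had log2 differences of -0.58, -0.52 and -0.37, none of which reached 1.5-fold. The cells of this class were unevenly spread over its clusters, with 492 control and 49 GC cells in cluster 7, 263 and 361 in cluster 3, and 190 and 151 in cluster 9. Within clusters Dusp1 had log2 differences of -0.91, 0.35 and 0.33, and Per1 of -0.42, 0.01 and 0.07, in the same order, and Ddit4 of -0.05 and 0.01 in clusters 7 and 3. Fkbp5, Tsc22d3 and Klf9 were above 0 in all 3 clusters and past 1.5-fold in 2 of them.

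In granulocyte-monocyte progenitors (202 and 267 cells), Tsc22d3 was the only member called, at 39.1 CPM in control (182 UMIs) and 81.8 CPM in GC (497 UMIs), a ratio of 2.09 (95% interval 1.76 to 2.49), where 0.967% of all genes were higher and 0.979% lower. Both levels lay below those of the empty droplets of the same library, at 64.5 CPM in control and 151 CPM in GC. Fkbp5 was at 25.4 CPM in control and 33.9 CPM in GC (95% interval 1.06 to 1.69), and Klf9 had a log2 difference of 0.17. The class includes cluster 19 (43 and 63 cells, with a median of 1015.5 UMIs), in which the progenitor genes Mpo, Prtn3 and Ctsg stood among the leading genes beside Fabp4, Timp3, Ly6c1, Cavin1 and Cav1, genes of endothelial cells and other tissues, so that its name is uncertain. Without it, a setting chosen after seeing the data (159 and 204 cells), Tsc22d3 had a ratio of 2.07 (95% interval 1.74 to 2.47), Fkbp5 a ratio of 1.29 (95% interval 1.02 to 1.63), and Klf9 a log2 difference of 0.04. In hematopoietic stem and progenitor cells (42 and 51 cells), Fkbp5 was higher at 36.2 CPM in control (26 UMIs) and 71.8 CPM in GC (74 UMIs), a ratio of 1.98 (95% interval 1.252 to 3.23), against 3.33% of all genes higher and 5.05% lower. Klf9 was highest in this class in trabecular control among the classes compared, and was at 199 CPM in control and 155 CPM in GC. Granulocyte-monocyte progenitors, immature neutrophils and mature neutrophils had Fkbp5 ratios of 1.34, 2.12 and 7.96, with intervals of 1.06 to 1.69, 1.70 to 2.66 and 6.44 to 9.92. The first includes cluster 19. Cluster 6 (4 control and 546 GC cells) was named mature and cluster 7 (492 and 49) immature. In each, the leading genes held as many markers of another class as of its own. The ratios can therefore compare cells of unlike maturity, and a trend over stages was not tested.

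Monocytes (269 and 254 cells) had a background of 1.29% of genes higher and 2.26% lower. Fkbp5 was at 23.6 CPM in control (99 UMIs) and 81.4 CPM in GC (326 UMIs), a ratio of 3.44 (95% interval 2.74 to 4.35). Tsc22d3 was at 88.4 CPM in control (370 UMIs) and 173 CPM in GC (694 UMIs), a ratio of 1.96 (95% interval 1.73 to 2.23). Klf9 was at 106 CPM in control and 161 CPM in GC, a log2 difference of 0.58 that lay just inside 1.5-fold. Sgk1 was at 143 CPM in control and 120.1 CPM in GC. Both monocyte clusters had Fkbp5 higher, with log2 differences of 2.35 and 1.14. A list of 18 dissociation genes, early response genes that tissue digestion induces, summed to 7909.7 CPM in control and 7912 CPM in GC in monocytes.

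T cells (45 and 164 cells) had few UMIs in control, so their intervals were wide, and 12.0% of all genes were higher and 12.4% lower. Fkbp5 was at 21.8 CPM in control (6 UMIs) and 68.96 CPM in GC (88 UMIs), a ratio of 3.17 (95% interval 1.40 to 8.87). Klf9 was at 58.00 CPM in control (16 UMIs) and 100.3 CPM in GC (128 UMIs), a ratio of 1.73 (95% interval 1.03 to 3.12). Dusp1 was lower, at 276 CPM in control (76 UMIs) and 153 CPM in GC (195 UMIs), a ratio of 0.555 (95% interval 0.423 to 0.733), the only lower call in trabecular bone. The dissociation genes summed to 13054 CPM in control and 9912 CPM in GC in these T cells, and their part in the Dusp1 value was not tested.

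Erythroid cells (327 and 558 cells) gave calls for Fkbp5 and Tsc22d3, but at levels under those of the empty droplets. Fkbp5 was at 2.65 CPM in control (9 UMIs) and 11.6 CPM in GC (48 UMIs), and Tsc22d3 at 9.42 CPM in control (32 UMIs) and 29.4 CPM in GC (122 UMIs). Hemoglobin transcripts took 36.8% of the UMIs of these cells in control and 58.8% in GC. With them the median of all genes was shifted by -0.61, so that 53.3% of all genes were lower and 0.413% higher. In empty droplets Fkbp5 was at 15.05 CPM in control and 53.04 CPM in GC, Tsc22d3 at 64.5 and 151 CPM, and Klf9 at 23.6 and 72.7 CPM. Free RNA of the trabecular libraries thus carried the same difference, and its part in the values of each class was not tested directly. An alternative setting took off 10% of UMIs in the proportions of all filtered cells of the library, not of its empty droplets. With it the log2 difference of Fkbp5 in mature neutrophils was 2.67.

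**Figure D3:**
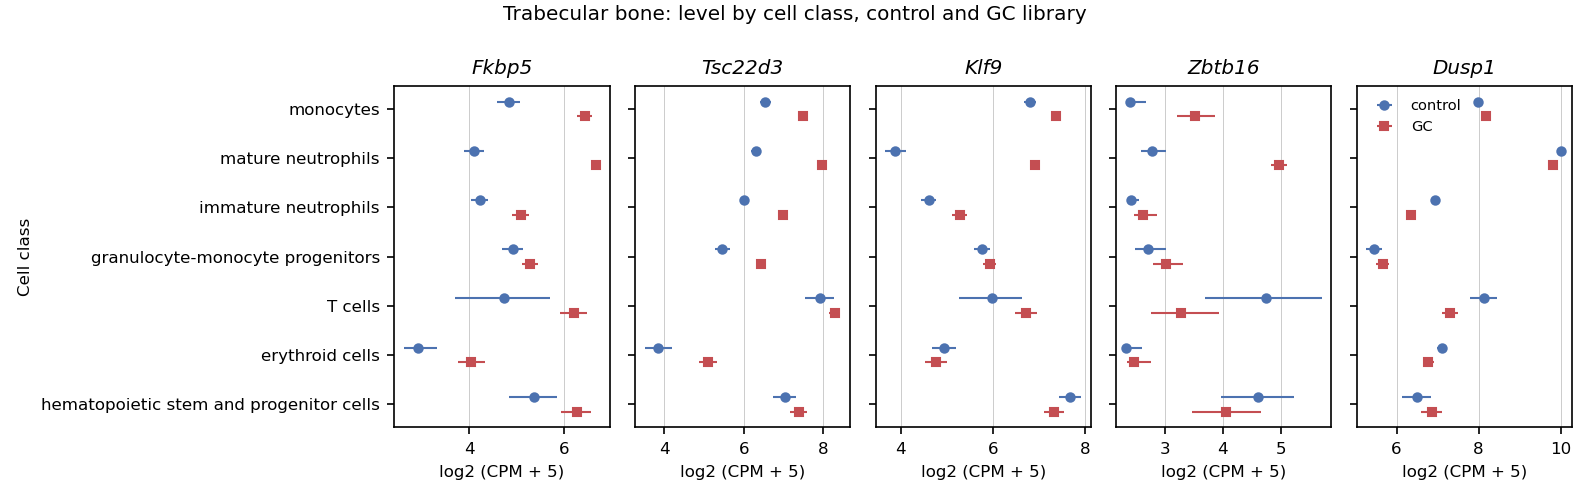
Levels of Fkbp5, Tsc22d3, Klf9, Zbtb16 and Dusp1 in each trabecular class as log2(CPM + 5), for control (blue circles) and GC (red squares), with 95% Poisson intervals. The level of Fkbp5 and of Tsc22d3 in GC lay above that in control in all 7 classes, that of Klf9 in 5 of 7 and that of Dusp1 in 3 of 7, and the increase reached 1.5-fold in 6, 5, 3 and 0 of them. Dusp1 was lower past 1.5-fold in T cells. Zbtb16 had enough UMIs in mature neutrophils only, where it was called higher.

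The callus held a different set of cells, and its members moved differently by class. Chondrocytes, the largest class with 2023 cells in control and 1775 in GC, had Sgk1 and Dusp1 higher and Ddit4 lower, where 2.04% of all genes were higher and 2.78% lower. Sgk1 was at 536 CPM in control (27398 UMIs) and 1129.8 CPM in GC (24997 UMIs), a ratio of 2.11 (95% interval 2.07 to 2.14). Dusp1 was at 228 CPM in control (11673 UMIs) and 455 CPM in GC (10073 UMIs), a ratio of 1.99 (95% interval 1.94 to 2.05). Ddit4 was at 49.6 CPM in control (2535 UMIs) and 17.8 CPM in GC (393 UMIs), a ratio of 0.358 (95% interval 0.321 to 0.398). Ddit4 lay between -0.69 and -1.43 on the log2 scale over the alternative settings. Both Sgk1 and Dusp1 lost the call when doublets were kept, with log2 differences of 0.41 and 0.33, and Dusp1 lost it at a limit of 5% mitochondrial UMIs, at 0.53.

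Below the threshold in chondrocytes, Fkbp5 was at 19.7 CPM in control and 30.9 CPM in GC (95% interval 1.42 to 1.72), Klf9 at 237 CPM in control and 324 CPM in GC (95% interval 1.33 to 1.41), and Tsc22d3 at 113 CPM in control and 138 CPM in GC (95% interval 1.17 to 1.28). These 3 ratios and that of Zbtb16, at 4.79 CPM in control and 7.37 CPM in GC, all had intervals above 1. Per1 was at 47.4 CPM in control and 39.5 CPM in GC and Cebpd at 92.3 CPM in control and 84.5 CPM in GC, with intervals of the ratio below 1.

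The chondrocyte values depended on which cells were compared. Of the 5 chondrocyte clusters with at least 30 cells in each library, cluster 1 held 203 control cells and 1182 GC cells, with medians of 18876 and 3867 UMIs per cell, and the other 4 held more control cells, except cluster 16 with 98 and 110. Sgk1 was above 0 in all 5 clusters, with log2 differences of 0.84, 0.74, 0.36, 0.42 and 0.70 in clusters 1, 5, 8, 10 and 16. Fkbp5 was above 0 in all 4 clusters where it had enough UMIs, from 0.36 to 0.67. Ddit4 was below 0 in all 4, at -0.49, -0.61, -1.41 and -1.66 in clusters 1, 5, 8 and 10. Dusp1 had 1.96 in cluster 1 but 0.29, 0.62, -0.34 and 0.57 in the others. With equal weight for each of the 5 clusters the log2 differences were 0.61 for Sgk1, 0.62 for Dusp1 and -0.69 for Ddit4. The Ddit4 mean also takes in cluster 16, where the gene had too few UMIs to be compared. A mean of -0.69 requires a value above 0 in that cluster, so it does not summarise the 4 Ddit4 values listed.

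Clusters 6 and 7, which carried cartilage genes but did not pass the naming rule, were added for comparison. Clusters 11 (2 control and 348 GC cells) and 24 (0 and 79) also passed 10 of 10 chondrocyte markers without being named, and had too few control cells to compare. In clusters 6 and 7, Sgk1 had log2 differences of 0.87 and 0.42, Ddit4 -1.25 and -0.85, Dusp1 0.84 and 0.41, and Fkbp5 0.51 and 0.34. Of all genes, 3.44% were higher and 3.79% lower in cluster 6, and 2.12% and 2.76% in cluster 7. The share was not counted in the 5 named clusters. Across the 7 clusters, the difference of Sgk1 was above 0 in 7 and past 1.5-fold in 4, and that of Ddit4 was below 0 in all 6 where it could be compared and past 1.5-fold in 5, whereas the sign of Dusp1 varied. In the empty droplets of callus control, Sgk1 was at 602 CPM, above its level in control chondrocytes, and Ddit4 at 41.1 CPM. The part of free RNA in the callus GC library could not be measured.

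**Figure D4:**
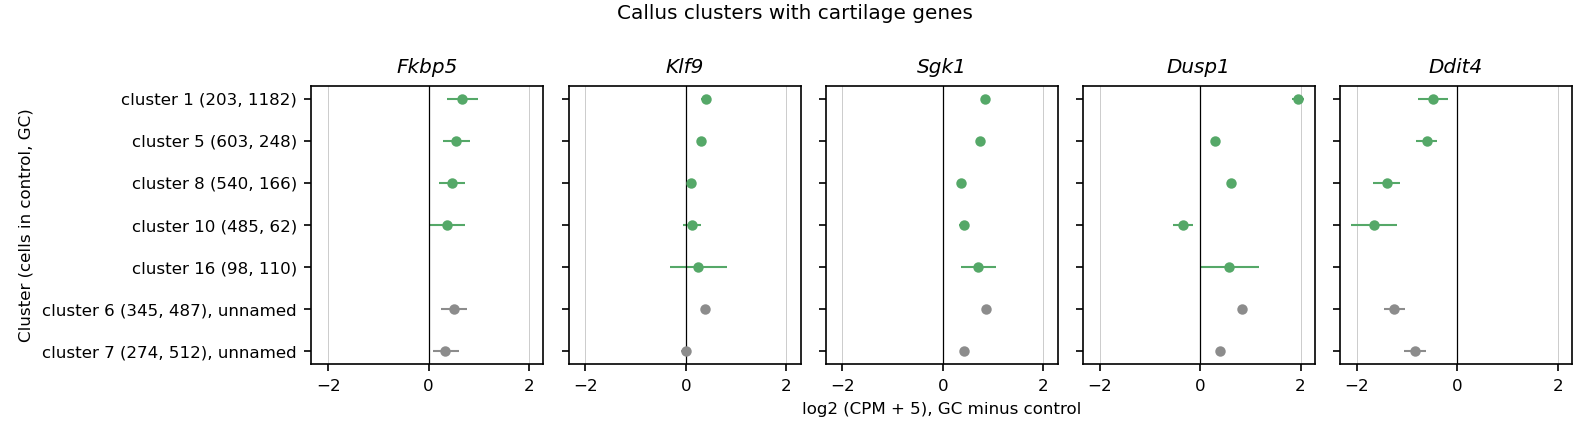
Difference in log2(CPM + 5), GC minus control, of 5 genes in the 7 callus clusters that carried cartilage genes and had at least 30 cells in each library, with 95% intervals for counting error. Green points are the 5 clusters named chondrocytes and grey points the unnamed clusters 6 and 7, with the numbers of cells in parentheses. Sgk1 lay right of 0 and Ddit4 left of 0 in every cluster compared, and Dusp1 was widest apart in cluster 1.

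The other skeletal and vascular classes of callus were small. In osteoblasts or osteocytes (73 and 91 cells; 6.68% of all genes higher, 5.78% lower), only Fkbp5 was higher, at 12.4 CPM in control (17 UMIs) and 26.2 CPM in GC (37 UMIs), a ratio of 2.11 (95% interval 1.16 to 3.996). Its level in GC lay near that of the empty droplets of callus control (26.4 CPM), and its log2 difference ran from 0.14 to 1.02 over the alternative settings. Sgk1 was at 719 CPM in control and 1064 CPM in GC (95% interval 1.36 to 1.61), just under 1.5-fold, and Klf9 at 386 CPM in control and 431 CPM in GC. Tsc22d3, Cebpd and Dusp1 had log2 differences of -0.34, -0.39 and -0.21.

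In stromal or skeletal progenitor cells (98 and 94 cells), Per1 was lower at 56.98 CPM in control (77 UMIs) and 27.3 CPM in GC (27 UMIs), a ratio of 0.479 (95% interval 0.297 to 0.751), where 5.29% of all genes were higher and 7.29% lower. Dusp1 was at 601 CPM in control and 414 CPM in GC, Cebpd had a log2 difference of -0.49, and Sgk1 was at 431 CPM in control and 566 CPM in GC. Fkbp5 did not reach the threshold, with a ratio of 0.968 (95% interval 0.605 to 1.53). The dissociation genes summed to 16478 CPM in control and 12155 CPM in GC in these cells, and their part was not tested. Per1 in these cells lay, in both libraries, below the 82.2 CPM of the empty droplets of callus control. In endothelial cells (52 and 83 cells), none of 5 comparable genes was called, against 7.58% of all genes higher and 8.47% lower. Sgk1 was at 1065 CPM in control and 1275 CPM in GC, Dusp1 at 937 CPM in control and 694 CPM in GC, and Ddit4 at 147 CPM in control and 109 CPM in GC.

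Among myeloid cells of callus, macrophages and osteoclasts had the same genes called. In macrophages (86 and 89 cells; 12.8% of all genes higher, 8.79% lower), Klf9 was at 42.2 CPM in control (27 UMIs) and 88.4 CPM in GC (44 UMIs), a ratio of 2.09 (95% interval 1.27 to 3.51), and Tsc22d3 at 39.1 CPM in control (25 UMIs) and 62.3 CPM in GC (31 UMIs), with an interval of the ratio of 0.9098 to 2.81 that includes 1 and a call lost under 5 alternatives. Sgk1 was at 859 CPM in control and 1119 CPM in GC, and Dusp1 was nearly equal at 591 CPM in control and 594 CPM in GC. In osteoclasts (111 and 120 cells; 5.20% of all genes higher, 5.36% lower), Tsc22d3 was at 47.02 CPM in control (104 UMIs) and 84.4 CPM in GC (169 UMIs), a ratio of 1.795 (95% interval 1.40 to 2.31). Klf9 was at 48.8 CPM in control (108 UMIs) and 83.4 CPM in GC (167 UMIs), a ratio of 1.71 (95% interval 1.33 to 2.20). In the empty droplets of callus control, Klf9 stood at 139 CPM and Tsc22d3 at 121 CPM, each above its level in either class. Fkbp5 and Dusp1 in osteoclasts had log2 differences of 0.54 and 0.48, and Per1 -0.56.

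Mature neutrophils of callus (1687 and 1380 cells) had 2 members higher and 2 lower, where 12.4% of all genes were higher and 12.4% lower. Klf9 was at 22.9 CPM in control (55 UMIs) and 52.7 CPM in GC (95 UMIs), a ratio of 2.30 (95% interval 1.63 to 3.27), and Fkbp5 at 11.2 CPM in control (27 UMIs) and 19.4 CPM in GC (35 UMIs), a ratio of 1.73 (95% interval 1.02 to 2.97). Both levels lay, in either library, below those of the empty droplets of callus control, and the log2 difference of Fkbp5 ran from 0.34 to 0.74 over the alternative settings. The Fkbp5 level in GC lay inside the interval of those droplets, 17.1 to 38.9 CPM. Dusp1, at its highest of all classes here, was at 2597 CPM in control (6233 UMIs) and 1049 CPM in GC (1890 UMIs), a ratio of 0.404 (95% interval 0.383 to 0.425). Per1 was at 161 CPM in control (387 UMIs) and 91.6 CPM in GC (165 UMIs), a ratio of 0.568 (95% interval 0.470 to 0.683). Dusp1 was below 0 in all 3 clusters of the class, at -1.47, -1.44 and -0.41, and at -1.40 at its lowest under the alternative settings. Per1 had log2 differences of -0.48, -0.34 and -1.42 in the same clusters, and passed 1.5-fold in 1 of the 3. These clusters held the libraries unevenly, with 295 control and 1106 GC cells in cluster 0, 1259 and 108 in cluster 2, and 133 and 166 in cluster 12. In cluster 12, where Per1 passed 1.5-fold, the leading genes held as many markers of another class as of mature neutrophils, so that its name is uncertain. The dissociation genes summed to 9908 CPM in control and 5903 CPM in GC, and their part in the Dusp1 and Per1 values was not tested.

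The smaller myeloid and erythroid classes had few cells. In granulocyte-monocyte progenitors of callus (43 and 42 cells), Dusp1 was lower at 104 CPM in control (70 UMIs) and 15.2 CPM in GC (9 UMIs), Ddit4 at 69.7 CPM in control (47 UMIs) and 16.9 CPM in GC (10 UMIs), and Klf9 at 123 CPM in control (83 UMIs) and 77.8 CPM in GC (46 UMIs). In this class 5.20% of all genes were higher and 17.0% lower, the median of all genes was -0.17, and the dissociation genes summed to 3596 CPM in control and 1640.2 CPM in GC. The Klf9 difference of -0.63 turned to 0.054 at a limit of 5% mitochondrial UMIs. In dendritic cells (114 and 132 cells), Ddit4 was higher at 24.8 CPM in control (17 UMIs) and 63.4 CPM in GC (42 UMIs), a ratio of 2.56 (95% interval 1.43 to 4.80), against 11.3% of all genes higher and 8.99% lower, which is opposite to its direction in chondrocytes. In erythroid cells (54 and 64 cells), Dusp1 was lower at 208 CPM in control (51 UMIs) and 61.01 CPM in GC (11 UMIs), where 12.9% of all genes were higher and 9.80% lower. It was the only member with enough UMIs in these cells, and its log2 difference of -1.69 became -0.37 at a Leiden resolution of 0.5, where the call was lost. In the empty droplets of callus control, Dusp1 was at 350 CPM and Klf9 at 139 CPM. Dusp1 lay below that value in erythroid cells and in granulocyte-monocyte progenitors, and Klf9 in the latter.

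Of the lymphoid cells of callus, B cells and NK or innate lymphoid cells had Fkbp5 higher and 1 other member lower. In B cells (622 and 394 cells), Fkbp5 was at 26.3 CPM in control (33 UMIs) and 59.9 CPM in GC (41 UMIs), a ratio of 2.28 (95% interval 1.40 to 3.72), where 4.13% of all genes were higher and 17.9% lower. Per1 was lower in B cells, at 116 CPM in control (145 UMIs) and 58.4 CPM in GC (40 UMIs), a ratio of 0.505 (95% interval 0.347 to 0.722). In NK or innate lymphoid cells (132 and 164 cells; 6.76% of all genes higher, 11.5% lower), Fkbp5 was at 37.6 CPM in control (16 UMIs) and 87.4 CPM in GC (39 UMIs), a ratio of 2.33 (95% interval 1.27 to 4.46), and Sgk1 was lower at 193 CPM in control (82 UMIs) and 109.8 CPM in GC (49 UMIs), a ratio of 0.570 (95% interval 0.392 to 0.822). Both of these Sgk1 levels lay below the 602 CPM of the empty droplets of callus control, and the part of free RNA was not tested. In T cells (293 and 392 cells), none of 6 comparable genes was called, against 3.61% of all genes higher and 14.5% lower. Tsc22d3, abundant in these lymphocytes, was at 309 CPM in control and 291 CPM in GC in B cells, 215 CPM in control and 225 CPM in GC in T cells, and 193 CPM in control and 204 CPM in GC in NK or innate lymphoid cells. The intervals of its ratio in the 3 classes were 0.788 to 1.12, 0.866 to 1.26 and 0.777 to 1.45. The ratio in trabecular mature neutrophils was 3.31, and the difference between these classes and tissues was not tested.

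**Figure D5:**
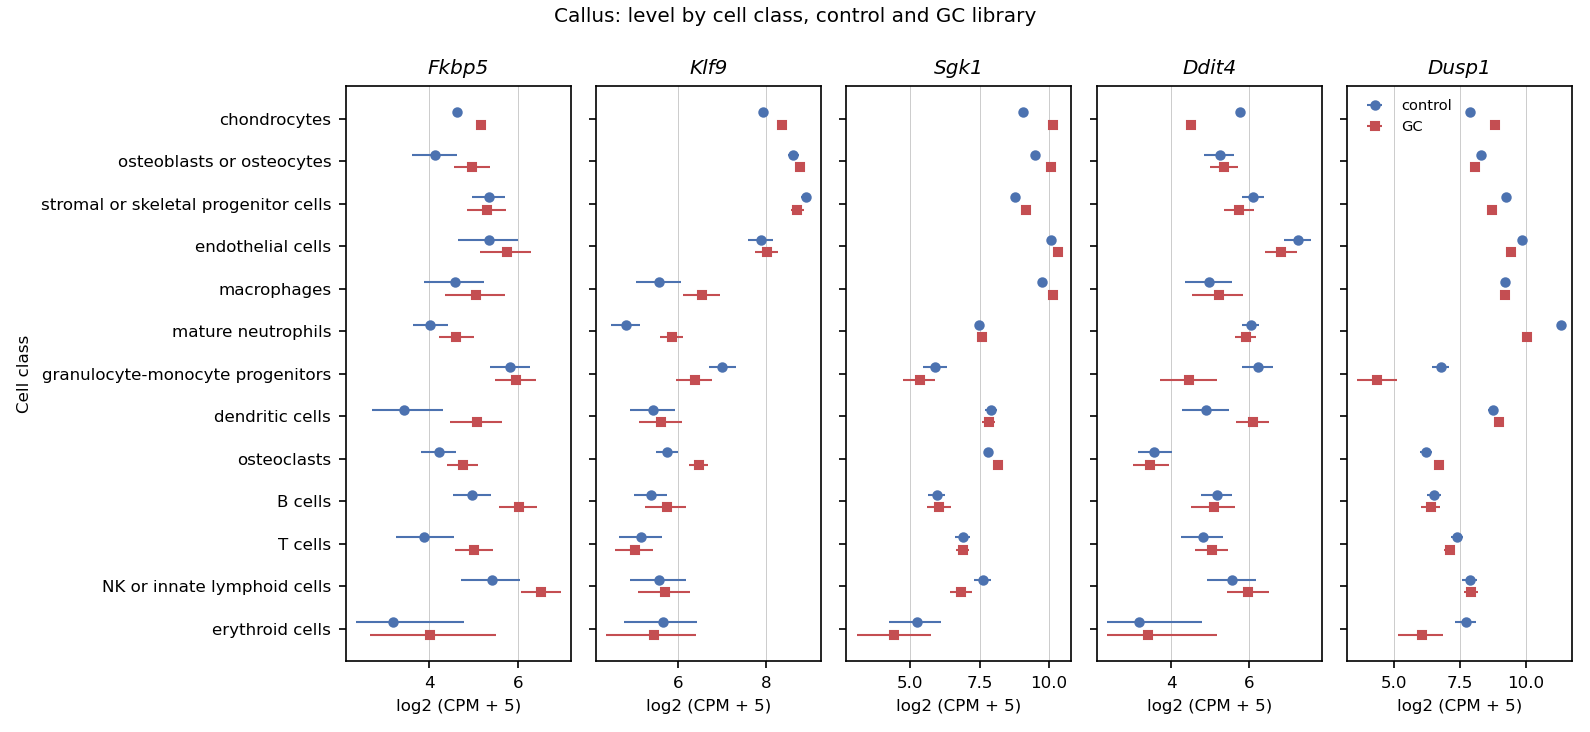
Levels of Fkbp5, Klf9, Sgk1, Ddit4 and Dusp1 in each callus class as log2(CPM + 5), for control (blue circles) and GC (red squares), with 95% Poisson intervals. The level of Fkbp5 in GC lay above that in control in 12 of the 13 classes drawn, stromal or skeletal progenitor cells being the exception, but 5 of the 13 had fewer than 50 UMIs and the difference reached 1.5-fold in 4 of the other 8.

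The levels of the 9 genes ranked the classes differently. In callus control, Sgk1 was highest in endothelial cells (1065 CPM), then macrophages (859) and osteoblasts or osteocytes (719), with intervals that did not overlap. In callus GC, chondrocytes (1129.8 CPM) stood beside macrophages (1119 CPM), with overlapping intervals. Klf9 was highest in stromal or skeletal progenitor cells (473 CPM in callus control), followed by osteoblasts or osteocytes (386 CPM) and chondrocytes (237 CPM). Dusp1 was highest in mature neutrophils in all 4 libraries among classes with at least 30 cells. Its levels there were 2597 CPM in callus control, 1049 CPM in callus GC, 1026 CPM in trabecular control and 896 CPM in trabecular GC. Per1 also led in mature neutrophils in all 4, at 161, 91.6, 194 and 193 CPM in the same order.

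Among classes with at least 30 cells in the library, Tsc22d3 was highest in lymphocytes in both control libraries. It was at 309 CPM in B cells and 215 CPM in T cells of callus control, and 252 and 236 CPM in those of trabecular control, where the intervals overlapped. Cebpd was highest in immature neutrophils of trabecular bone, at 201 CPM in control and 234 CPM in GC, among classes with at least 30 cells in both libraries. Ddit4 was highest in endothelial cells of callus, at 147 CPM in control and 109 CPM in GC. Fkbp5 changed its order with treatment. Among trabecular classes with at least 30 cells in both libraries, those with the highest Fkbp5 in control were hematopoietic stem and progenitor cells (36.2 CPM) and granulocyte-monocyte progenitors (25.4 CPM), whose intervals overlapped. In GC, mature neutrophils (97.1 CPM) led, with an interval that lay above that of monocytes (81.4 CPM).

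The receptor gene Nr3c1 was at 83.8 CPM in control and 88.5 CPM in GC over all callus cells, and at 47.3 CPM in both libraries over all trabecular cells. In trabecular mature neutrophils it was at 56.4 and 67.1 CPM, and in monocytes at 69.7 and 54.2 CPM. It was lower in GC in 3 classes, NK or innate lymphoid cells of callus (155 and 80.7 CPM), T cells of trabecular bone (184.9 and 103.4 CPM) and erythroid cells of trabecular bone (18.2 and 10.4 CPM). Of all genes, 11.5%, 12.4% and 53.3% were lower in these classes in the same order. The erythroid call came in a class where the median of all genes was itself shifted by -0.61. Nr3c1 was called higher in no class. A list of 11 genes of the receptor axis covered the receptor, its chaperones and cofactors, and the enzymes that activate and inactivate GCs. Of its trabecular pairs of gene and class, 2 of 57 were higher (3.51%, against 4.30% of all pairs) and 7 lower (12.3%, against 10.1%). In callus 1 of 88 was higher (1.14%, against 6.13%) and 5 lower (5.68%, against 8.82%).

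A list of 30 other genes known to be induced by GCs served as a comparison. In trabecular bone 20 of 116 pairs were higher (17.2%) and 15 lower (12.9%), and in callus 32 of 207 were higher (15.5%) and 35 lower (16.9%), against the same backgrounds as the members. In trabecular mature neutrophils the widest increases were those of the metallothionein Mt1, at 12.1 CPM in control and 208 CPM in GC, and of glutamine synthetase (Glul), at 33.5 CPM in control and 247 CPM in GC. The lowest were the arrestin-like gene Arrdc3, at 117 CPM in control and 56.9 CPM in GC, and the insulin receptor substrate gene Irs2, at 38.6 CPM in control and 21.5 CPM in GC. Mt1 and Glul were also the highest of the list in monocytes, at 138 CPM in control and 325 CPM in GC for Mt1 and 68.1 CPM in control and 128 CPM in GC for Glul. The lowest in monocytes were the chemokine receptor Cxcr4 and the cell cycle inhibitor Cdkn1a, with log2 differences of -0.39 and -0.38.

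In callus the same list had other leading genes. In chondrocytes the highest log2 differences were those of Lcn2 (1.45) and Cxcr4 (0.94), both at low levels, and the lowest those of the NF-kappaB inhibitor Nfkbia (-0.75) and of Arrdc3 (-0.53). In osteoblasts or osteocytes the metallothioneins Mt2 (1.14) and Mt1 (1.02) were highest, and Arrdc3 (-0.63) and Errfi1 (-0.50) lowest. In callus mature neutrophils the transcriptional repressor Bcl6 (1.51) and Glul (1.08) were highest, and Cdkn1a (-1.62) and Errfi1 (-1.18) lowest.

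Of 18 inflammatory genes known to be repressed by GCs, 39 of 75 callus pairs were lower (52.0%, against 8.82% of all pairs) and 6 were higher (8%, against 6.13%). As with the other lists, the genes were chosen with earlier results of these data known, so these shares are no independent comparison. In callus mature neutrophils the cytokine gene Il1b was at 5109.9 CPM in control and 833 CPM in GC and the chemokine gene Cxcl2 at 15272 CPM in control and 3125 CPM in GC, while the highest of the list were Tnf, at 60.8 CPM in control and 311 CPM in GC, and Icam1, at 30.4 CPM in control and 68.3 CPM in GC. In chondrocytes the lowest were the chemokines Cxcl1 (-2.06) and Cxcl2 (-1.62), and the highest Ptgs2 (0.36) and Ccl4 (0.13). The same genes recurred over unlike classes. Cxcl2 was also lower in endothelial cells, osteoclasts, B cells and T cells. Mmp13, a leading gene of a chondrocyte cluster, was lower in macrophages, dendritic cells, B cells and T cells. The part of free RNA in these callus pairs was not tested, and it could not be measured in callus GC. In trabecular bone 11 of 51 pairs were lower (21.6%, against 10.1%) and 12 were higher (23.5%, against 4.30%). Most of the 10.1% came from erythroid cells, as given above. In trabecular mature neutrophils Cxcl1 and Icam1 had log2 differences of 2.24 and 2.21, and Ptgs2 and Ccl4 of -1.19 and -0.88.

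Lists for other inducers of the members were counted the same way. Of all pairs of gene and class, 6.13% were higher and 8.82% lower in callus, and 4.30% and 10.1% in trabecular bone. Of the 18 dissociation genes, 79 of 201 callus pairs were lower (39.3%) and 6 higher (2.99%). In trabecular bone 17 of 111 were lower (15.3%) and 7 higher (6.31%). Of 12 hypoxia genes, 37 of 91 callus pairs were lower (40.7%) and 2 higher (2.2%), and 8 of 44 trabecular pairs were lower (18.2%) and 2 higher (4.55%). In callus chondrocytes, where Ddit4 was lower, the lowest hypoxia genes were Egln3, at 25.7 CPM in control and 4.47 CPM in GC, and Pfkfb3, at 134 CPM in control and 48.6 CPM in GC, and the highest were Bnip3 and Pgk1, with log2 differences of 0.01 and -0.12. The part of hypoxia genes in the Ddit4 value was not tested. Of 14 clock genes, 5 of 67 callus pairs were higher (7.46%) and 6 lower (8.96%). In trabecular bone 4 of 24 were higher (16.7%) and 2 lower (8.33%).

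The genes most like each member were taken from the Pearson correlation of log2(CPM + 5) over 53 profiles of class and library, among 10108 genes. The profiles share libraries, depth and free RNA, so these values are a description. Sgk1 had the closest neighbours, Zfp703 (r = 0.88), Pdlim5 (0.83) and Jag1 (0.83), followed by Klf9 with Poglut3 (0.81), Tmem159 (0.80) and Cpq (0.76). Dusp1 was nearest to Maff (0.77), Socs3 (0.72) and S100a6 (0.70), and Per1 to Sorl1 (0.73), Rgs2 (0.71) and Zc3h12a (0.71). Tsc22d3 was nearest to Klf2 (0.73), Asb13 (0.69) and Ctps2 (0.66), and Cebpd to Anxa3 (0.79), Mtus1 (0.78) and Dstn (0.76). Ddit4 (Hspa2, Chka and Bcor, 0.64 to 0.61), Fkbp5 (Sugt1, Atn1 and Zfp748, 0.62 to 0.60) and Zbtb16 (Ksr1, Rab37 and Efemp1, 0.55 to 0.54) had weaker neighbours. No member was among the nearest genes of another. The highest correlation between members was 0.68 for Sgk1 and Klf9, and Fkbp5 and Tsc22d3 had 0.56.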

How the data were processed

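Single-cell RNA-Seq of 4 libraries gave, per the file headers, raw UMI counts for each gene and barcode from Cell Ranger 4, without normalization. The submitters' processing notes list Cell Ranger 5.0.1, Seurat 3.2.0 and mm10 (GRCm38). Other settings are not given in the sources used here. In the 3 full matrices, barcodes were called cells by a UMI cutoff, or with at least 500 UMIs and a profile that departed from empty droplets (multinomial test, adjusted p at most 0.01). The callus GC matrix was taken as deposited. Cells with under 200 genes or over 10% mitochondrial UMIs, and the highest doublet scores (0.8% per 1000 cells), were removed. Depth was 41239842 to 95852254 UMIs per library, and the intervals give its precision.

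Both libraries of each tissue entered 1 clustering on 2000 variable genes without the genes reported here, 30 components, 15 neighbours and Leiden resolution 1, without batch correction. This gave 32 clusters in callus and 30 in trabecular bone. A class needed at least 3 of its markers, and at least 50% of them, 2-fold over the median of the other clusters in at least 10% of cells. A cluster whose 10 leading genes held more markers of another class stayed unnamed, which left 6 in callus and 1 in trabecular bone. The naming rule was set after clusters had been seen.

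UMIs were summed per class and library. Levels were compared as log2(CPM + 5) with at least 30 cells per library and 50 UMIs, and 1.5-fold was used as the limit. With 1 library per condition no test was made. Poisson, Clopper-Pearson and conditional ratio intervals were exact at 95%. Named were all 9 genes in every class, the 2 highest and 2 lowest of each other list in a class described, and the 3 genes nearest to each member among genes of at least 20 CPM in at least 3 profiles. Some classes of these lists are given as counts only. The members and lists were chosen with earlier results of these data known. Scripts used Python 3.11.15 with leidenalg 0.10.2, python-igraph 0.11.9, scikit-learn 1.9.0, SciPy 1.17.1, NumPy 2.4.6, pandas 2.3.3 and matplotlib 3.10.9, and were tested on simulated data. Alternatives covered cell filters, doublets, clustering, denominators, depth, free RNA, pseudocounts, minimum counts and fold.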

Additional observations from a re-analysis of the deposited data

Results flagged for a closer look

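Per1 and Cebpd had opposite signs in the 2 tissues over all cells, with counting intervals of the ratio that excluded 1 on both sides. The log2 difference of Per1 was -0.36 in callus and 0.16 in trabecular bone, so that callus minus trabecular bone was -0.525. For Cebpd the values were -0.12 and 0.16, and callus minus trabecular bone was -0.276. The sign of Cebpd in callus turned with cells thinned to 1000 UMIs, at 0.03. With 1 library per condition these differences between tissues were not tested, and the cells of the tissues are of different classes. In mature neutrophils, present in both, Per1 had log2 differences of -0.78 in callus and 0.00 in trabecular bone, and Cebpd of 0.14 and 0.12. The libraries fell into different clusters of these cells. Within clusters Per1 had -0.48, -0.34 and -1.42 in callus, and -1.27 and -0.33 in trabecular bone, so that it was below 0 in every cluster compared in both tissues. The 2 trabecular clusters compared, 0 and 5, held only 51 and 62 GC cells. Their control cells had Per1 at 243 and 127 CPM. Most GC cells lay in clusters 1, 2, 4 and 6, where Per1 was at 164, 305, 297 and 127 CPM.

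Empty droplets, which enter no comparison between classes, carried more of 3 genes in trabecular GC than in trabecular control. Fkbp5 was at 53.0 CPM in GC and 15.05 CPM in control, Tsc22d3 at 151 and 64.5 CPM, and Klf9 at 72.7 and 23.6 CPM. The matching values over all trabecular cells were 60.1 and 16.1 CPM for Fkbp5, 166 and 75.5 CPM for Tsc22d3, and 92.9 and 41.9 CPM for Klf9.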

How the results depend on the processing

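In callus, 12 pairs of gene and class were higher in GC, and 4 were with a minimum of 200 UMIs, 5 with cells thinned to 1000 UMIs, 24 at a looser fold limit and 5 at 2-fold. The 10 lower pairs of callus became 3 at 200 UMIs, 6 with thinned cells, 5 with at least 100 cells per class, 19 at the looser limit, 5 at 2-fold, 16 without doublet removal and 16 with unnamed clusters counted as classes (a setting chosen after seeing the data). In trabecular bone the 15 higher pairs became 5 of 23 with thinned cells, 27 at the looser limit, 8 at 2-fold and 24 with at least 1000 UMIs and 500 genes per cell. The 1 lower pair became 4 with the mean over cells, 3 with a pseudocount of 1 CPM, with 10% of UMIs taken off as free RNA, without the cells highest in dissociation genes or with at least 15 cells per class, and 2 when centred on the median of all genes, with at least 1000 UMIs, or with at most 5% or 20% mitochondrial UMIs. It became 7 at the looser limit and 0 at 2-fold or with at least 100 cells per class. Values of single genes under alternatives numbered 1059, including settings that leave a given value untouched by construction. Of these, 925 stayed within the counting interval of the main value, 133 moved beyond it and 1 called value changed sign. That was Klf9 in callus granulocyte-monocyte progenitors, -0.63 against 0.054 with at most 5% mitochondrial UMIs. Of the values under 1.5-fold over all cells, 4 changed sign: Dusp1 in callus with the mean over cells (0.38 to -0.47) and thinned cells (-0.42), Cebpd in callus with thinned cells (-0.12 to 0.03), and Ddit4 in trabecular bone without the cells highest in dissociation genes (0.09 to -0.06). With the limit held at 1.5-fold, 28 of 44 called values kept the call under every alternative that gave a value and 16 lost it under at least 1. Beside those named above, these include Zbtb16 over all trabecular cells (1.36 to 0.57) and Fkbp5 in trabecular erythroid cells (1.12 to 0.48) with a pseudocount of 20 CPM, Tsc22d3 in trabecular monocytes with thinned cells (0.93 to 0.56), Klf9 in trabecular T cells with at most 5% mitochondrial UMIs (0.74 to 0.57) and Klf9 in osteoclasts without the cells highest in dissociation genes (0.72 to 0.55). The cause was not tested, except that thinning and higher minimums leave fewer pairs. No paired analysis was possible because each condition has 1 library. The design limits every value: animal, preparation and library cannot be told apart from GC, and Zbtb16 could be compared in only 2 classes at this depth.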

Other observations

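Some classes and clusters that entered no comparison above are given here by their values. Stromal or skeletal progenitor cells of trabecular bone, the only skeletal cells found there, numbered 13 in control and 36 in GC, so the control cells were below the minimum of 30. Cebpd was at 243 CPM (95% interval 163 to 349.7) in control and 883 CPM (95% interval 771 to 1007) in GC. Tsc22d3 was at 369 CPM (95% interval 268 to 496) and 792 CPM (95% interval 686 to 909.9) in the same order, and these intervals do not overlap for either gene. Klf9, at 1201 and 1378 CPM, was higher in these cells than in any compared class of either tissue. Dusp1 was at 798 and 669 CPM, and Fkbp5 at 67.2 CPM (8 UMIs) and 95.1 CPM (24 UMIs).

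B cells of trabecular bone numbered 319 in control and 16 in GC. Tsc22d3 was at 252 CPM (95% interval 229.8 to 275) in the former and 1083 CPM (95% interval 813 to 1413) in the latter, the highest level of this gene in any class of the 4 libraries. The 16 GC cells all lay in cluster 18, whereas the control cells were spread over clusters 17, 18 and 22 with 140, 99 and 80 cells. In these clusters Tsc22d3 was at 281 CPM (95% interval 233 to 337), 706 CPM (95% interval 619.7 to 802) and 107 CPM (95% interval 89.4 to 128) in control. The intervals of the libraries in cluster 18 did not overlap. The dissociation genes summed to 9996 CPM in the control B cells and 16862 CPM in the GC B cells, and their part was not tested.

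Cluster 3 of callus (500 and 472 cells), led by Lyz2 and Chil3 but left unnamed, had Fkbp5 at 2.64 CPM (95% interval 0.968 to 5.74) in control and 14.2 CPM (95% interval 9.30 to 20.9) in GC. These Fkbp5 levels rest on fewer than 50 UMIs over both libraries, the minimum used above. Both lay below the 26.4 CPM of the empty droplets of callus control. Of all genes in this cluster, 11.2% were higher and 9.53% lower. In the same cluster Per1 was at 61.1 and 24.6 CPM, also below those droplets (82.2 CPM). Dusp1 was at 587 and 359 CPM, while the dissociation genes of the cluster summed to 6573 CPM in control and 3805 CPM in GC. The cluster was named in this section after its values had been seen.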
